A study of Homo sapiens with 74 samples.

Results

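The histone gene cluster of human chromosome 6 was taken as every region of the knockout count table that lies on hg19 chromosome 6 from 26000000 to 27950000, which gave 163 of 145536 regions. The rule used position alone and no measured value. The regions were 501 to 2418 base pairs wide, with a median of 782, and together covered 152 kb. All 163 passed the filter on low counts and were tested in the knockout table, and all 163 also stood in the knockdown table.

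The assay was ATAC-seq, which reads out open chromatin as the sites where a transposase inserts adapters, and the cells were HAP1, a near-haploid human leukaemia-derived line. The study removed subunits of the BAF and PBAF chromatin remodelling complexes. The knockout table held 52 libraries of 26 knockout clones for 22 genes and 4 libraries of the wild-type clone C631, and each clone had 2 libraries. For 18 genes a single clone stood for the knockout, and ARID1A, ARID1B, BCL7B and SMARCA4 had 2 clones each. Clones were compared with the wild-type libraries of their own set. Set 1 held wild-type replicates 1 and 2 with 23 clones, and set 2 held wild-type replicates 5 and 6 with ARID1B clone 5, BCL7B clone 10 and SMARCC2 clone 10. The sets were read from the order of accessions and the form of the titles, and no label states them. The knockdown table held 2 libraries for each of 8 groups: wild-type cells with a control, SMARCA4, ARID2 or double knockdown, ARID2 knockout cells with a control or SMARCA4 knockdown, and SMARCA4 knockout cells with a control or ARID2 knockdown. The labels do not say which clones these knockout cells were, nor that replicates were separate cultures, so the spread between libraries may be technical.

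Replication-dependent histone genes lack introns and are copied together when DNA is made, and the cluster on chromosome 6 is the largest group of them in the human genome. It supplies linker histone H1 and the core histones H2A, H2B, H3 and H4, which package DNA into nucleosomes. SMARCA4 and SMARCA2 are the alternative ATPases that drive BAF complexes to slide or evict nucleosomes, ARID1A and ARID1B mark canonical BAF, and ARID2, PBRM1, BRD7 and PHF10 belong to PBAF.

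In the RefSeq gene table (GRCh38.p14, used here for names and order only), 227 genes stand from H1-1 to H2BC17, and 53 of them are protein-coding histone genes: 6 of H1, 11 of H2A, 14 of H2B, 10 of H3 and 12 of H4. They form 3 runs, H1-1 to H4C8, H2BC11 to H2AC12, and H2BC13 to H2BC17. Butyrophilin genes, zinc finger genes such as ZNF322, ZNF391 and ZNF184, PRSS16 and 98 tRNA genes lie among them. An annotation of hg19 was not used here, so no measured region was assigned to a gene, and the region's name was checked only through this gene order. RefSeq promoter sequences were found for 48 of the 53 genes. The TATA box TATAAA stood on either strand in the 250 bases upstream of 31 of these 48 genes (64.6%), against 11.1% of 27305 promoters of all genes. The CCAAT box, to which NF-Y binds, stood in 41 of 48 (85.4%, against 33.0%): in all 38 promoters of the H1, H2A, H2B and H3 genes, but in 3 of 10 H4 promoters. The octamer ATTTGCAT, known from H2B promoters, stood in 11 of 14 H2B, 8 of 10 H2A and 1 of 8 H3 promoters and in none of the 6 H1 or 10 H4 promoters, and in 1.66% of all promoters. None of the 3 motifs holds another within it, and a match is a description, not a measured site. For the first gene of each class that has a promoter sequence, the 250 upstream bases are shown 5′ to 3′ on the gene's strand, to show how the classes differ, with matches to these motifs on either strand in capitals.
H1-1: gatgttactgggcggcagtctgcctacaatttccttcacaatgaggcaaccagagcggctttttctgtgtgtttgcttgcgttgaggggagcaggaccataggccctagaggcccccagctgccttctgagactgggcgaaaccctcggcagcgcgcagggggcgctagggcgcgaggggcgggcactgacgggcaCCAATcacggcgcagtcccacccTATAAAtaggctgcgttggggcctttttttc
H2AC4: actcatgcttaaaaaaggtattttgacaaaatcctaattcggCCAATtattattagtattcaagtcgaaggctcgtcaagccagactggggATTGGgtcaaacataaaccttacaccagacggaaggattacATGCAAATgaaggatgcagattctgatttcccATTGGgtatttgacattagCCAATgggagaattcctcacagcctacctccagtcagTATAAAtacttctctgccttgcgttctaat
H2BC3: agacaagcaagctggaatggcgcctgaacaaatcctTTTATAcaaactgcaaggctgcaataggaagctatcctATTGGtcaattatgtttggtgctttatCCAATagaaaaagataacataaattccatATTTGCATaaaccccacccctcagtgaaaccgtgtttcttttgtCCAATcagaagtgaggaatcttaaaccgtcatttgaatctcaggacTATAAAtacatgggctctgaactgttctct
H3C1: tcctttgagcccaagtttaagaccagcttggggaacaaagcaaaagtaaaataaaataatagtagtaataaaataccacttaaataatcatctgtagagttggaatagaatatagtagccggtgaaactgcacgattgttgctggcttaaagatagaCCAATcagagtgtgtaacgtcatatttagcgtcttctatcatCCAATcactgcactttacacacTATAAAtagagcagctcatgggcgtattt
H4C2: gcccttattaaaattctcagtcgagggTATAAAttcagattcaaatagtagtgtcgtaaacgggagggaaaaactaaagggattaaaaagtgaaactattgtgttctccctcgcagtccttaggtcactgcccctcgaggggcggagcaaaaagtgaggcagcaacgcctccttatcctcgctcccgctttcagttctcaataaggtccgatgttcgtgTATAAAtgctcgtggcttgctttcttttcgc

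In wild-type cells the cluster was an open stretch. CPM (counts scaled by effective library size to a common total) ranged over the 163 regions from 0.781 to 64.6 as means of the 4 wild-type libraries, with a median of 9.81. When all tested regions of the genome were ranked by mean CPM over the knockout table, 94 of the 163 (57.7%) fell in the top quartile, 29 in the third, 21 in the second and 19 in the lowest. Per kb, the most accessible region was chr6:27218954-27220004, with 39.0 CPM per kb and 41.0 ± 3.99 CPM (SD, n = 4). Next came chr6:27099472-27101143, with 38.7 CPM per kb and 64.6 ± 8.82 CPM (SD, n = 4). In the 56 libraries the first of these ranged from 29.3 to 60.5 CPM and the second from 47.8 to 83.2 CPM, and neither was called in any knockout. Also called in no knockout were chr6:27860694-27861510, chr6:27114430-27115551 and chr6:26056264-26056997, which had 36.6, 35.0 and 29.6 CPM per kb in wild type. The largest gap without a region ran for 165 kb, from 26758739 to 26923876.

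SMARCA4 loss changed the cluster most often among the 22 knockouts, and nearly always upwards. The cluster here is the whole window, in which tRNA genes and other genes lie among the histone genes. Of the 163 regions, 54 were higher and 5 lower than wild type in SMARCA4 knockout cells (edgeR quasi-likelihood test, Benjamini-Hochberg adjusted p under 0.05 over 145532 regions). Over all regions the same comparison called 21.9%, of which 8% of regions tested were higher and 13.9% lower, so the cluster had more higher and fewer lower calls than the genome. The median log2 fold change was 0.37 in the cluster, 0.00 over the 9164 regions of the rest of chromosome 6 and 0.01 over all regions. In 53 of the 54 higher regions and in all 5 lower ones, every SMARCA4 knockout library lay beyond both wild-type libraries. The calls came from these same libraries, so the separation describes them and adds no support. The same share among all called regions is not given here. Clone 4 alone gave 37 higher and 3 lower (17.5% of all regions called) and clone 6 alone gave 40 and 2 (15.8%). The count of 59 fell to 29 or 27 when wild-type replicate 1 or 2 was left out, to 37 without clone 4 replicate 2 and to 36 without clone 6 replicate 2.

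**Figure D1:**
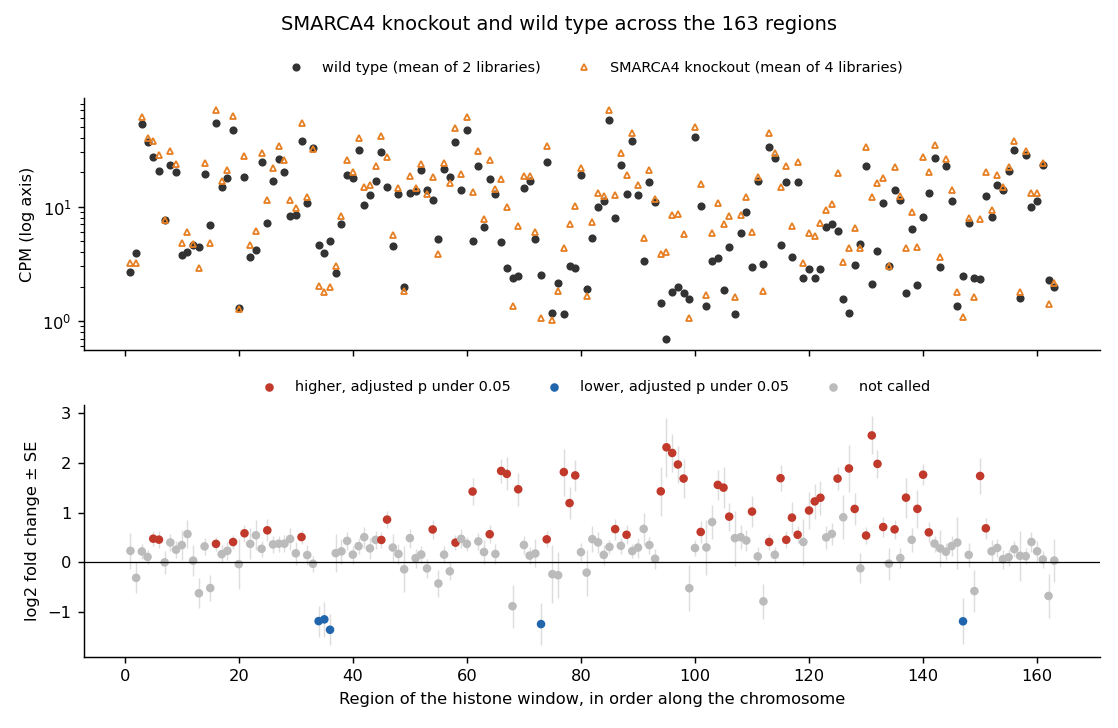
Top, mean CPM (log axis) of wild type (2 libraries, dots) and SMARCA4 knockout (4 libraries, triangles) for the 163 regions in order along the chromosome; bottom, the log2 fold change with its standard error as a grey line. Higher calls (red, 54) are spread over most of the stretch and reach 2.55, while 3 of the 5 lower calls (blue) are neighbours.

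Of the 54 higher regions, 28 rose 2-fold or more. Their wild-type mean ranged from 0.698 to 8.13 CPM with a median of 2.65, and their SMARCA4 knockout median was 7.16 CPM. The other 26 had log2 fold changes of 0.37 to 0.92, with a median of 16.6 CPM in wild type and 25.1 CPM in the knockout. A rise under 2-fold can pass the test only where counts are high, and the wild-type level is part of the fold itself, so the difference in level between these groups follows from how they were split and is given as a description. By genome-wide accessibility quartile, 12 of the 21 cluster regions in the second quartile were higher (all regions of that quartile: 3.6%) and so were 28 of the 94 in the top quartile (19.8%). None of those 94 was lower, against 21.4% of all top-quartile regions.

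**Figure D2:**
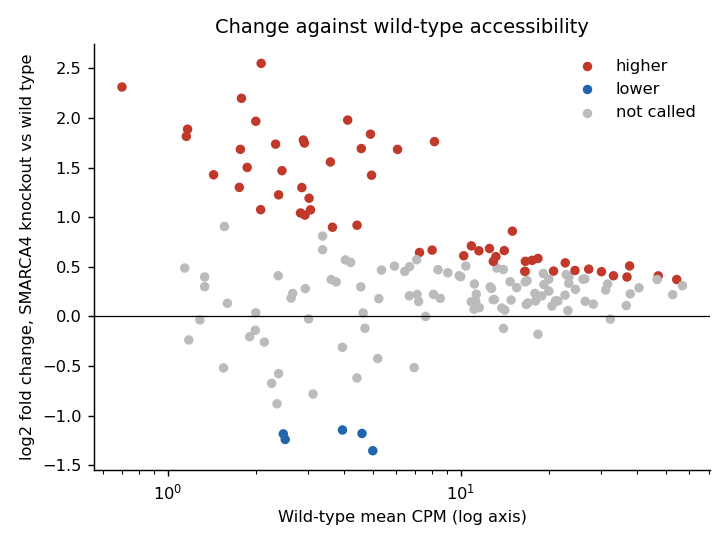
Log2 fold change of SMARCA4 knockout against wild type for each of the 163 regions, by wild-type mean CPM (log axis, 2 libraries). The 28 regions that rose 2-fold or more (red, at 1 and above) had wild-type means of 0.698 to 8.13 CPM, and the 5 lower regions (blue) were weak as well.

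Regions named by the size of their change had to have groups without overlap. Such separation, here and below, is thus part of how they were chosen. Region D, chr6:27570018-27570657, rose most. It had 2.14 and 2.03 CPM in the 2 wild-type libraries of set 1, 10.4 and 13.7 in clone 4, and 11.1 and 13.9 in clone 6. Every SMARCA4 library was thus several times above every wild-type library, and the log2 fold change was 2.55 ± 0.38 (SE; adjusted p = 1.8e-08). Nearby, chr6:27573209-27574114 had 3.20 and 5.02 CPM in wild type, 13.8 and 17.3 in clone 4, and 11.6 and 21.5 in clone 6. Both clones were above wild type here too, and the log2 fold change was 1.98 ± 0.28 (adjusted p = 2.2e-09).

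A second group of weak regions opened near 27.2 Mb. Region E, chr6:27181426-27181927, had 0.679 and 0.717 CPM in wild type, 2.23 and 2.00 in clone 4, and 4.04 and 7.61 in clone 6. The groups did not overlap, but clone 6 was higher than clone 4, whose own test was not passed (log2 fold change 1.58 ± 0.68, adjusted p = 0.092, against 2.31 ± 0.60 and 0.0016 for both clones). Region F, chr6:27182364-27183146, had 2.14 and 1.43 CPM in wild type, 7.07 and 7.78 in clone 4, and 7.85 and 10.8 in clone 6, a log2 fold change of 2.20 ± 0.39 (adjusted p = 2.1e-06). In chr6:27197744-27198660 the order of the clones was turned: wild type had 1.84 and 2.15 CPM, clone 4 had 11.7 and 13.0, and clone 6 had 3.37 and 6.51 (1.97 ± 0.37, adjusted p = 9.8e-06). All SMARCA4 libraries were above wild type in these 3 regions, with different leading clones. The sixth region by size, chr6:27533511-27534085, rose from 1.26 and 1.08 CPM to between 3.25 and 5.23 (1.89 ± 0.47, adjusted p = 0.0011).

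By position, the calls were densest from 27.5 to 27.65 Mb, where 14 of 21 regions were higher and the median log2 fold change was 1.04. From 27.2 to 27.35 Mb, 6 of 13 were higher, with a median of 0.61. At the start of the cluster, from 26 to 26.15 Mb, 3 of 17 were higher, with a median of 0.23. From 26.15 to 26.3 Mb, 4 of 24 were higher and 3 lower, with a median of 0.30. In the last stretch, from 27.8 to 27.95 Mb, none of 9 was called, with a median of 0.12. These stretches were not matched to the 3 runs of histone genes, so whether the higher regions lie at histone genes or between the runs was not tested.

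The 5 regions that fell in SMARCA4 knockout cells were all weakly open, and 3 of them were neighbours. Region G, chr6:26257327-26258043, had 6.31 and 3.71 CPM in wild type, 1.98 and 1.45 in clone 4, and 2.36 and 2.21 in clone 6. The knockout libraries were all lower, with a log2 fold change of -1.35 ± 0.31 (adjusted p = 0.00036), and the wild-type libraries of set 2 had 7.45 and 6.49 CPM. Its neighbours chr6:26253308-26253955 and chr6:26243331-26244349 had log2 fold changes of -1.15 ± 0.35 (adjusted p = 0.01) and -1.18 ± 0.31 (0.0021). The others were chr6:26651061-26651776 at -1.24 ± 0.42 (0.022) and chr6:27738529-27739030 at -1.18 ± 0.46 (0.049). Without wild-type replicate 1 all but chr6:26243331-26244349 lost their call, with adjusted p between 0.12 and 0.47, and without wild-type replicate 2 chr6:26651061-26651776 and chr6:27738529-27739030 did (0.095 and 0.21).

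The cluster's share of all counts in a library showed the same direction as the region tests. It was 0.205% and 0.206% in wild type of set 1, 0.226% and 0.228% in wild type of set 2, and 0.233% to 0.280% in the 4 SMARCA4 knockout libraries. The SMARCA4 libraries were above all 4 wild-type libraries, by little at their lowest. In both SMARCA4 clones replicate 2 was higher (0.262% and 0.280%) than replicate 1 (0.236% and 0.233%). Replicate 2 had the higher share in most set 1 clones, but not in wild type of set 1. The libraries of ARID1A clone 3 had 0.238% and 0.244%, above the SMARCA4 replicate 1 libraries. On the authors' own normalized values, taken here as log2, 48 regions were higher and none lower. There the median of all regions was itself 0.34 and that of the cluster 0.32, so on that scale the cluster's median was not above the genome's. The share of all regions called on that scale is not given here, so the 48 are not read as an excess.

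The knockdown table gave SMARCA4 knockout cells a second time, with a control knockdown and against wild-type cells with the same control. Here 14 of the 163 regions were higher and 3 lower, while 9.75% of all 145617 regions were called (1.49% higher). The cluster's median log2 fold change was 0.21 against 0.08 over all regions. The 28 regions with a rise of 2-fold or more in the knockout table were all positive in these separate libraries, with a median log2 fold change of 1.23, and 13 were called. All 14 higher calls of the knockdown table were among the 54 of the knockout table. Of these 14, 13 were among the 28 above, so the 26 rises under 2-fold were mostly not called again. In the top accessibility quartile, 28 of 94 regions were higher in the knockout table and 4 of 93 here. Over all regions of that quartile the shares were 19.8% and 1.69%. Of the 5 lower calls of the knockout table, only region G was called lower again. The other lower calls here, chr6:27370894-27371760 and chr6:26440398-26441251, were called in no knockout. Region D had 1.07 and 1.80 CPM in wild-type cells with control knockdown and 13.1 and 10.6 in SMARCA4 knockout cells (3.07 ± 0.42, adjusted p = 1.2e-07). Region E had 0.585 and 1.03 against 4.74 and 4.31 CPM (2.50 ± 0.60, 0.0022), and region F had 1.46 and 2.57 against 10.4 and 7.41 CPM (2.16 ± 0.42, 0.00011). The groups did not overlap in any of the 3, a condition that regions named for this comparison had to meet. Of the lower regions, G had 5.36 and 5.02 against 0.998 and 2.56 CPM (-1.55 ± 0.47, 0.019), and chr6:27370894-27371760 had 7.22 and 5.66 against 1.75 and 1.48 CPM (-1.99 ± 0.45, 0.00085). The count of 17 fell to 8 without SMARCA4 knockout replicate 1, to 9 without wild-type control replicate 1 and to 10 without wild-type control replicate 2.

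**Figure D3:**
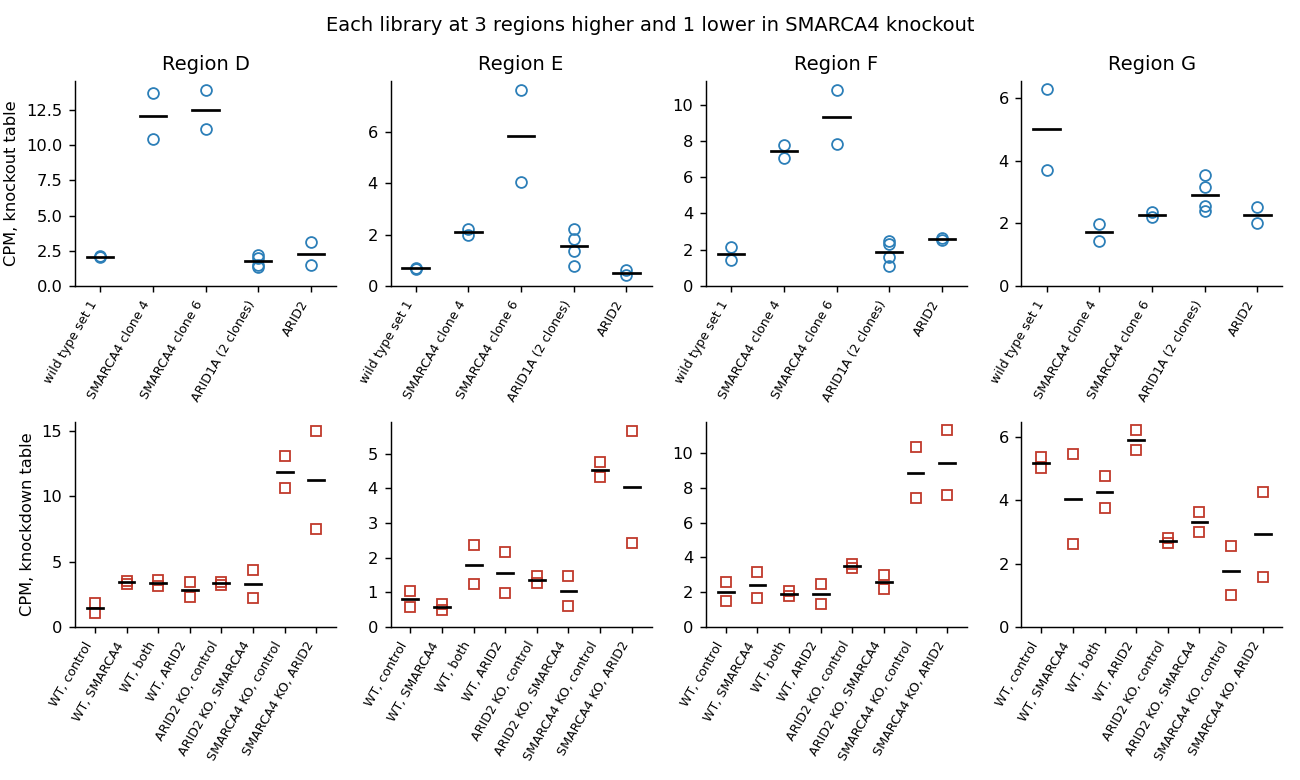
CPM of every library (open symbols) with group means (bars) at regions D, E and F, higher in SMARCA4 knockout, and G, lower; the top row is the knockout table and the bottom row the knockdown table. At region D the SMARCA4 knockout libraries reach 10.4 to 13.9 CPM in the top row while wild type stays near 2.

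In the main fit, which had no replicate block, knockdown gave few calls in the cluster. SMARCA4 knockdown in wild-type cells called 0 of 163 regions, with 12 at an unadjusted p under 0.05 and 0 with DESeq2, although 5.73% of all regions were called. By accessibility quartile of the knockdown table, lowest first, the unadjusted counts were 3 of 17, 3 of 21, 5 of 32 and 1 of 93. Over all regions they were 3882 of 36319, 6151 of 36433, 9649 of 36432 and 7129 of 36433. Unadjusted counts, here and below, are a description and not a result about the cluster. The percentages of all regions printed beside them are shares of adjusted calls, so they are no baseline for the unadjusted counts. Region D had 3.49 and 3.31 CPM with the knockdown against 1.07 and 1.80 with the control, which do not overlap, but the test was not passed (1.27 ± 0.46, adjusted p = 0.091). At the 28 regions above, 21 of the knockdown's log2 fold changes were positive, with a median of 0.34 and a range of -0.91 to 1.27. The cluster's median was 0.25 against 0.06 over all regions. The double knockdown called 2 regions, both lower, while 4.62% of all regions were called. One was chr6:26103152-26103653, at 0.890 and 1.26 CPM against 5.07 and 5.66 with the control (-2.33 ± 0.51, adjusted p = 0.0018). The other was chr6:26651061-26651776, also lower in the knockout table, at 1.45 and 1.26 against 5.17 and 4.12 CPM (-1.77 ± 0.52, 0.031). Without double knockdown replicate 1 neither was called, and without any of the other 3 libraries 1 was.

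SMARCA4 knockdown in ARID2 knockout cells called 0 of 163 regions (0.195% of all regions, 14 cluster regions unadjusted, 0 with DESeq2), with a cluster median of 0.34 against 0.02 over all regions. The median depended on accessibility. By quartile of the knockdown table, lowest first, it was -0.35, 0.09, 0.14 and 0.49 in the cluster. Over all regions it was -0.13, -0.07, -0.01 and 0.25. ARID2 knockdown called 0 regions in wild-type cells (0% of all regions, 9 unadjusted, 0 with DESeq2) and 0 in SMARCA4 knockout cells (0%, 8 unadjusted, 0 with DESeq2). ARID2 knockout cells with control knockdown also gave 0 calls (0.418% of all regions, 18 unadjusted, 0 with DESeq2). By quartile, lowest first, these unadjusted counts were 1 of 17, 2 of 21, 8 of 32 and 7 of 93. Over all regions they were 2605 of 36319, 3931 of 36433, 5009 of 36432 and 3845 of 36433. The test of whether the SMARCA4 knockdown acted differently in ARID2 knockout and wild-type cells called 0 regions (0% of all regions, 4 unadjusted), as did that for the ARID2 knockdown in SMARCA4 knockout and wild-type cells (0%, 3 unadjusted). In simulated counts of this size, changes were put only into regions above the median count. There 7% of 2-fold and 82% of 4-fold changes were recovered in the knockdown table. Only 100 regions were changed at each size, whereas the real SMARCA4 knockdown in wild-type cells called 8341 regions. With few changed regions the adjusted threshold is stricter, so these shares do not give the recovery in the real data. Weaker regions were not simulated. Replicate 1 had the higher share of its counts in the cluster in all 8 knockdown groups (0.192% to 0.281%, against 0.176% to 0.220% in replicate 2). The counts of 0 for SMARCA4 knockdown, in either cell background, and for ARID2 knockout with control knockdown did not hold under every setting. With a replicate block each of these comparisons had calls, as given at the end.

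ARID1A knockout changed fewer cluster regions, 8 higher and 3 lower, while 12.6% of all regions were called (2.27% higher and 10.3% lower). The cluster's median log2 fold change was 0.15 against 0.02 over all regions. Its largest rise was in region C, chr6:26571759-26572490, which had 3.98 and 5.86 CPM in wild type, 12.2 and 13.1 in clone 10, and 13.2 and 17.6 in clone 3. All ARID1A libraries were above wild type (1.52 ± 0.25, adjusted p = 4.8e-07), and SMARCA4 knockout cells, which share these wild-type libraries, had 14.4 to 23.4 CPM. Near it, chr6:26594886-26595517 (1.06 ± 0.33, 0.02) and chr6:26575667-26576282 (0.94 ± 0.34, 0.048) were higher. The lower regions were chr6:27875196-27875697 (-1.40 ± 0.47, 0.033), chr6:26253308-26253955 (-0.97 ± 0.35, 0.048) and chr6:26119109-26119673 (-0.80 ± 0.26, 0.022). Clone 3 gave 14 higher and 1 lower (9.68% of all regions) and clone 10 gave 4 and 1 (8.26%), and no region differed between the clones by test (20 at an unadjusted p under 0.05, 0.0598% of all regions called). The count of 11 was 2 with wild-type replicate 1 left out, 5 without replicate 2 of wild type, clone 10 replicate 2 or clone 3 replicate 2, and 7 without clone 3 replicate 1. With another scaling (cyclic loess) the split was 10 higher and 1 lower.

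Compared directly, without wild type, SMARCA4 knockout was higher than ARID1A knockout in 29 regions and lower in 1, while 9.95% of all regions were called. Region D had 12.3 ± 1.8 CPM in SMARCA4 and 1.75 ± 0.43 in ARID1A knockout (SD, n = 4 each; log2 difference 2.83 ± 0.30, adjusted p = 1.6e-14 by edgeR), and region F had 8.38 ± 1.7 against 1.86 ± 0.63 (2.21 ± 0.31, 1.6e-09 by edgeR). The lower one was chr6:26440398-26441251, with 3.84 ± 0.38 against 6.20 ± 0.40 CPM (-0.69 ± 0.22, 0.027 by edgeR). Against SMARCA2 knockout, the loss of the other ATPase, SMARCA4 knockout was higher in 58 regions and lower in 6 (25.5% of all regions called). The largest rise was in region E, with 3.97 ± 2.6 CPM (SD, n = 4) against 0.514 ± 0.17 (n = 2; 2.78 ± 0.61, 0.00014 by edgeR). The count of 64 fell to 32 and 41 without SMARCA2 replicates 1 and 2, to 41 without SMARCA4 clone 4 replicate 2 and to 36 without clone 6 replicate 2.

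SMARCC1, a scaffold subunit shared by BAF complexes, gave 2 higher and 2 lower regions when lost (5.19% of all regions called). The higher ones were chr6:27463094-27464020 (1.08 ± 0.30, adjusted p = 0.013) and region B, chr6:27639665-27641098 (0.89 ± 0.24, 0.01). Lower were chr6:27584722-27586492, at 5.70 and 5.91 CPM against 11.0 and 10.8 in wild type (-0.90 ± 0.25, 0.012), and chr6:26233109-26235527 (-0.59 ± 0.18, 0.039). SMARCA4 knockout cells had 16.5 to 19.5 CPM at chr6:27584722-27586492, above wild type (0.71 ± 0.20, 0.0043), so this region was on opposite sides of wild type in the 2 knockouts. Without either SMARCC1 library or wild-type replicate 2 the count of 4 was 2, and without wild-type replicate 1 it was 1. ARID2 knockout gave 4 higher and no lower regions (1.79% of all regions called). They were region B, with 22.9 and 19.7 against 6.70 and 9.56 CPM (1.40 ± 0.24, 1.7e-05), chr6:26757936-26758739 (1.31 ± 0.35, 0.021), region A, chr6:27520775-27521804 (1.22 ± 0.26, 0.0015), and region C (1.07 ± 0.28, 0.017). The count was 2 without ARID2 replicate 1 and 1 without wild-type replicate 1.

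The other 18 knockouts together called 16 of the 163 regions. The share of all regions called in any of these 18 is not given here, so the 16 are not read as an excess. The count was 8 or 9 when wild-type replicate 1 or 2 was left out. BCL7B knockout had 7 higher regions (1.4% of all regions called). ARID1B had 4 higher (3.22%) and BRD7 had 4 higher (0.695%). SMARCD2 had 2 higher (0.423%) and PBRM1 2 higher (0.423%). ACTB had 2 higher and 1 lower (1.35%), BCL7A 2 and 1 (0.467%), and SMARCD1 2 and 1 (1.58%). A single higher region was called in BRD9 (0.497%), DPF1 (0.0515%), DPF2 (1.79%), SMARCA2 (0.234%) and SMARCC2 (0.0941%). Lower regions alone were called in BCL11B (4 regions, 0.893%), BCL11A (3, 0.675%), PHF10 (3, 0.391%) and SMARCD3 (2, 0.842%). DPF3 knockout had none by edgeR or DESeq2 (0.0667%, 9 regions at an unadjusted p under 0.05). Of the 66 regions called in any knockout, 46 were called in 1 knockout and 5 in 5 or more. The same counts over all regions are not given here, so these are a description only.

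**Figure D4:**
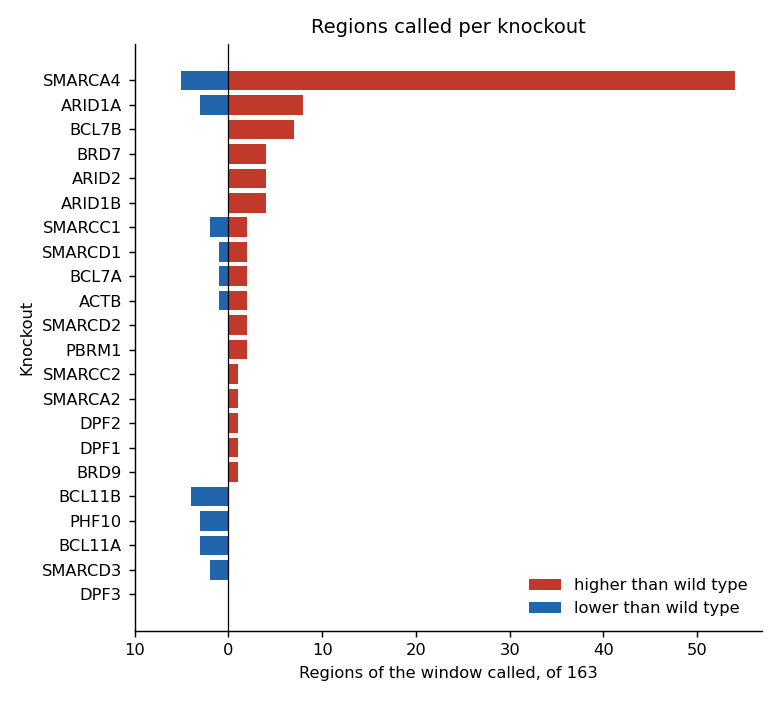
Cluster regions called higher (red, to the right) and lower (blue, to the left) than wild type in each of the 22 knockouts, of 163. SMARCA4 has 54 higher and 5 lower, ARID1A 8 and 3, and every other knockout at most 7 in either direction.

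The regions called most often varied from clone to clone, which is partly built into choosing them by their calls. Region A was called in 12 knockouts, higher in 9 and lower in 3 (ACTB, BCL11A and BCL11B). It had 4.76 and 7.41 CPM in wild type of set 1 and 7.02 and 7.35 in set 2. Its mean was highest in SMARCA4 clone 4, at 20.0 and 28.9 CPM, and lowest in BCL11B clone 10, at 1.40 and 2.14, with the 26 clone means spread over a 13.8-fold range. The 2 libraries of a clone lay close together: the SD between clone means was 1.04 on the log2(CPM + 0.5) scale, 3.58 times the SD within clones. Over the 163 regions the median of that ratio was 0.98, and it passed 2 in 11 regions. The SD between clone means also holds spread within clones, so this median is not a baseline without clone differences. The ARID1B clones differed at region A, with 15.8 and 18.6 CPM in clone 7 but 6.84 and 6.19 in clone 5, each against its own set's wild type (log2 difference 1.65 ± 0.40, adjusted p = 0.0037). In all, 5 cluster regions differed by test between the ARID1B clones (4.97% of all regions called), 3 between the BCL7B clones (4.31%) and 1 between the SMARCA4 clones (0.224%). The clones of ARID1B and of BCL7B stand in different sets, and wild type of set 2 differed from that of set 1 in 3 cluster regions (5.83%).

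Region B was called in 11 knockouts, higher in 10 and lower in PHF10. Its 26 clone means ran from 3.35 CPM in PHF10 clone 11 to 28.2 in SMARCA4 clone 6, against 5.77 to 9.56 in the 4 wild-type libraries. Region C was higher in 6 knockouts, ARID1A, ARID1B, ARID2, BCL7B, BRD7 and SMARCA4, with clone means from 2.15 CPM in SMARCD3 clone 12 to 20.6 in SMARCA4 clone 6. The region chr6:27463094-27464020 was also higher in 6 knockouts (ACTB, ARID1A, BCL7B, BRD7, SMARCA4 and SMARCC1), but the wild-type libraries of set 2 spread there from 1.73 to 6.88 CPM. The calls of set 1 clones share 2 wild-type libraries, so they are not independent of each other.

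**Figure D5:**
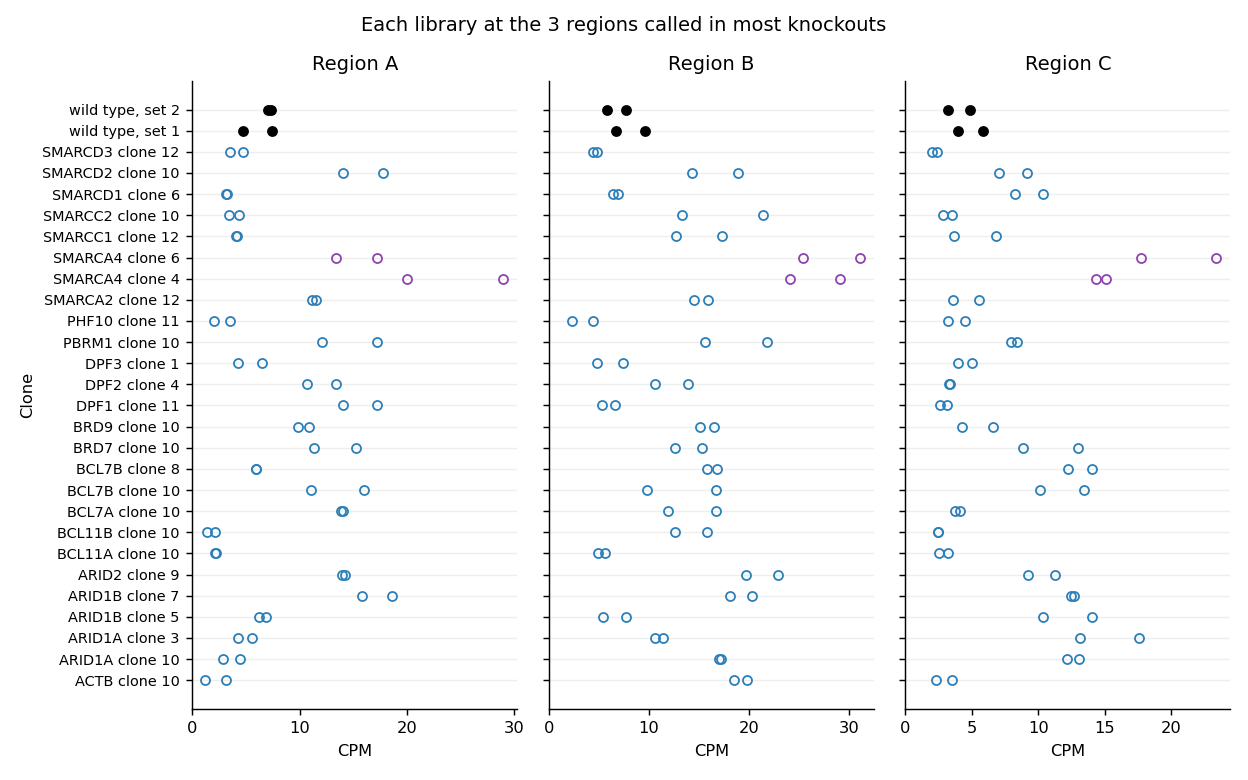
CPM of every library of the 26 knockout clones (circles, SMARCA4 in purple) and of wild type (black) at regions A, B and C, the 3 regions called in most knockouts. Libraries of 1 clone lie close together while clones differ, from under 3 CPM to over 20 CPM at region A.

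Other regions moved in a subset of lines. At chr6:26550602-26551246 wild type had 4.66 to 5.73 CPM over the 4 libraries. BCL11B (-2.09, adjusted p = 0.00013), BCL11A (-1.70, 0.0034), BCL7A (-1.60, 0.0079) and SMARCD3 (-1.40, 0.021) knockouts were lower there on the log2 scale, with 1.07 to 1.91 CPM in their libraries. SMARCA4 knockout was higher, with 9.54 to 18.6 CPM. At chr6:27261414-27261979, BCL11A (-2.52, adjusted p = 0.00098), SMARCD3 (-2.60, 0.00063), PHF10 (-1.82, 0.033) and SMARCD1 (-1.57, 0.045) were lower, with 0.274 to 1.51 CPM against 2.33 and 4.42 in wild type of set 1. Region H, chr6:27209147-27209744, was nearly closed in wild type, at 1.00 to 2.03 CPM, and in SMARCA4 knockout, at 0.66 to 1.46 CPM. It was open in BCL7B clone 8 (12.4 and 7.86 CPM), BCL7B clone 10 (7.84 and 6.16), ARID1B clone 5 (8.77 and 5.69) and SMARCD1 (6.24 and 6.56). The log2 fold change was 2.70 in BCL7B (adjusted p = 4.6e-10) and 2.06 in SMARCD1 (0.0018), while ARID1B clone 7 stayed at 0.95 and 1.78 CPM. At chr6:27265430-27266379, BCL11B knockout was lower (-1.80, adjusted p = 0.0029), with 1.05 and 1.46 CPM.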

How the data were processed

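ATAC-seq counts per region were deposited by the authors as 2 tables, unscaled whole numbers: 56 libraries of the knockout series hold 5085811 to 12422345 counts each, and 16 knockdown libraries 5355899 to 12432292. The cluster's regions had library medians of 49 to 125 and 42 to 154 counts. A further deposited table holds normalized values for 48 libraries. The authors' scaling and log base are not given in the sources used here, and taking the values as log2 is an assumption. Per the submitters' processing notes, hg19 was the build, and MACS2 2.1.1.20160309, Picard 1.118 and Bowtie2 2.2.4 were tools, with no roles given. Wild-type replicates 3 and 4 had no matched column and were not analysed here, and 2 columns of libraries outside the labels were not used.

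Counts were fitted over all regions with edgeR 4.0.16 in R 4.3.3 (TMM scaling, low-count filter, quasi-likelihood test), with 1 coefficient per clone or knockdown group and per wild-type set (28 and 8 residual degrees of freedom). Genes with 2 clones were tested as the mean of the clones. P-values were adjusted over all regions by Benjamini-Hochberg, with calls at 0.05, and errors after log2 fold changes are standard errors. The wild-type libraries of a set are shared by all its comparisons. The script was tested on simulated data of 145532 regions, with changes put only into regions above the median count. For SMARCA4 knockout it recovered 61% of 100 changes of 2-fold and 99% of 100 changes of 4-fold. Recovery in weaker regions was not simulated. With so few changed regions the adjusted threshold also differs from that of the real data. Accessibility does not check that the targeted protein was lost, and this was not tested.

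Alternatives were RLE scaling, no low-count filter, DESeq2 1.42.0, a replicate block, wild type pooled over both sets, limma 3.58.1 on the deposited normalized values, each clone alone, and each library left out. Cyclic loess offsets, the interaction and clone-difference tests, and the clone spread were added after the data were seen. Named regions were the 10 most accessible per kb in wild type, up to 6 called regions per direction by size with groups that do not overlap (2 for the other knockouts and the direct comparisons), the 6 called in most knockouts and the 5 most accessible called in none. Regions where the clones of a gene differed were named too. The cluster, lists and tests were chosen with earlier results of these data known. Sequences come from RefSeq (GRCh38.p14); coordinates are those of the deposited hg19 tables.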

Additional observations from a re-analysis of the deposited data

Results flagged for a closer look

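In the 4 ARID1A knockout libraries, chr6:26253308-26253955 had 1 library apart from the others: clone 10 replicate 1 at 2.68 CPM, with the other three at 1.78, 1.83 and 1.88. Its gap to the nearest took 0.889 of the whole range. Among the 22 groups of 4 examined this way, about 1 in 20 is flagged by chance.

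The clones of 1 gene differed by test in 9 cases, given as log2 differences. In SMARCA4 knockout, chr6:27263911-27264533 was 2.30 higher in clone 4 (11.2 and 12.5 CPM) than in clone 6 (2.36 and 2.43 CPM), with 1.94 and 1.79 CPM in wild type. That was 1 of 163 regions, while 0.224% of all regions differed between these clones.

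Clone 7 of ARID1B differed from clone 5, each against its own wild type, in 5 regions (4.97% of all regions). These were chr6:27520775-27521804 (1.65), chr6:27639665-27641098 (1.30), chr6:26217739-26218472 (1.10), chr6:26473856-26474780 (1.03) and chr6:27209147-27209744 (-2.87). BCL7B clone 8 differed from clone 10 in 3 regions (4.31%): chr6:26473856-26474780 (1.03), chr6:27473224-27473847 (-1.86) and chr6:27499750-27500251 (-2.87).

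These 2 pairs of clones stand in different sets, so clone and set cannot be told apart. At chr6:26473856-26474780 the ARID1B clones themselves had 21.6 and 24.1 against 19.0 and 18.1 CPM, while wild type had 18.7 and 17.9 CPM in set 1 and 36.3 and 24.2 in set 2. The wild-type sets differed from each other by test in 3 cluster regions, this one included (0.72 ± 0.21, edgeR adjusted p = 0.019; 5.83% of all regions called).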

How the results depend on the processing

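The numbers of cluster regions called depended on the wild-type libraries and the scaling. The share of all regions called under each setting is not given here, so these counts are not set against the genome. With wild type pooled over both sets the counts were 17 for ARID1A, 12 for SMARCC1, 13 for ARID2 and 27 for the other 18 knockouts together. With limma on the deposited normalized values they were 24 for ARID1A, 31 for the other 18 and 17 for SMARCA4 directly against ARID1A. With a replicate block, SMARCA4 knockdown called 4 regions in wild-type cells and 12, all higher, in ARID2 knockout cells, and ARID2 knockout with control knockdown called 6. No label says that a number marks a shared day or batch. Deviations of same-numbered libraries correlated at -0.0775 to 0.158 for knockouts, with a median of -0.0048. For the 7 knockdown groups against the wild-type control all were positive, at 0.0625 to 0.242 with a median of 0.172, and 4 were over 0.1. Replicate 1 also had the higher cluster share in all 8 knockdown groups. The main fit did not pair libraries by number, so its knockdown counts depend on that choice. Cyclic loess offsets gave 2 for SMARCA4 knockdown in wild-type cells and 2 for ARID2 knockout with control knockdown, for which RLE scaling gave 1. DESeq2 gave 1 for the double knockdown, and clone 10 alone gave 5 for ARID1A.

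With each library left out in turn the counts ranged from 27 to 60 for SMARCA4 knockout, 2 to 9 for ARID1A, 1 to 2 for SMARCC1, 1 to 5 for ARID2 and 8 to 18 for the other 18 knockouts. They ranged from 22 to 32 for SMARCA4 directly against ARID1A and from 32 to 64 against SMARCA2. In the knockdown table they were 8 to 15 for SMARCA4 knockout with control knockdown, 0 to 1 for SMARCA4 knockdown in wild-type cells (1 without wild-type control replicate 1) and 0 to 1 for the double knockdown. The cause of these shifts was not tested beyond the smaller number of samples.

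Of 542 checks of single named regions under these settings, 442 stayed on their side of the threshold, 100 no longer passed it and 0 changed sign. These checks did not include each clone alone. The 6 regions named as highest in SMARCA4 knockout passed in all 77 of theirs, and in 11 of 12 tests of 1 clone alone: region E did not pass in clone 4 (adjusted p = 0.092). These 6 were chosen for the largest changes without overlap in the same libraries, so passing is partly built into the choice. Counts limit the weak regions most: in wild type several of them have about 1 to 3 CPM.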
